A study of Mus musculus with 15 samples.

Results

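Transfer RNA synthetases are the enzymes that join each amino acid to its transfer RNA (tRNA) before the ribosome uses it. The set described here holds 36 of the 23845 genes in the deposited tables, found by gene symbol: 20 cytosolic enzymes and 16 mitochondrial enzymes. Genes whose symbol ends in 2 were taken as mitochondrial and the rest as cytosolic, although Gars and Kars each serve both compartments. The set does not hold every mitochondrial synthetase, and it leaves out Tarsl2, a second threonine enzyme of the cytosol, which is described under other observations. All 36 genes passed the filter on low counts and were tested.

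The data came from E14, a line of mouse embryonic stem cells, in which messages of DEAD-box RNA helicases were lowered by RNA interference. Cells of all groups were kept on 0.2% gelatin, received 400 ng of small interfering RNA with 4 µL of Lipofectamine 2000 for 16 h and were harvested at 48 h. The control, EGFPKD, received interfering RNA against EGFP, and the other groups received it against 1 helicase message each and are called Ddx10KD, Ddx24KD, Ddx27KD and Ddx54KD. Each of the 5 groups had 3 libraries, which the series' design text calls biological replicates. No genotype other than the E14 strain is given, and the number of separate interfering RNAs per target is not given in the sources used here.

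Poly(A) RNA libraries held 26836946 to 27708782 expected counts. Each targeted transcript was lower in its own knockdown than in every other library. Measured as a share of the control mean it stood at 18.5% in Ddx10KD, 30.8% in Ddx24KD, 22.7% in Ddx27KD and 27.95% in Ddx54KD. Summed levels of 10 embryonic stem cell markers lay between 7852 and 8282 TPM (transcript abundance corrected for gene length and scaled to the same total in each library) in all 15 libraries. Markers of other cell types were low: 8 fibroblast genes summed to 18.1 to 26.1 TPM in EGFPKD and 11.6 to 17.3 TPM in the knockdowns, with 2 of 8 reaching 1 TPM in any library and Postn at 0 in all. The 6 endoderm genes summed to 3.33 to 4.70 TPM in EGFPKD and 3.52 to 8.18 TPM in the knockdowns, with 3 of 6 reaching 1 TPM. Thy1, which made up most of the fibroblast sum, was called lower in all 4 knockdowns. The 5 trophoblast genes summed to 61.7 to 80.1 TPM in EGFPKD and 81.1 to 138 TPM in the knockdowns, with 3 of 5 reaching 1 TPM. Most of that sum was Tfap2c, which was called higher in all 4 knockdowns. Without replicate 1 of EGFPKD these 4 Tfap2c calls were lost (edgeR adjusted p of 0.0600 to 0.139), as was the Thy1 call in Ddx54KD (0.158), and single knockdown libraries ended some of them too. Of the 10 embryonic stem cell markers 3, 2, 3 and 2 were called lower in Ddx10KD, Ddx24KD, Ddx27KD and Ddx54KD and 0, 1, 1 and 1 higher. Of all tested genes 14.5%, 13.1%, 16.1% and 11.2% were called lower and 16.5%, 15%, 17.3% and 13.1% higher. Under the replicate block 5, 4, 5 and 4 markers were lower and 2, 3, 3 and 3 higher. The shares of all genes were then 21.3%, 19.9%, 22.6% and 18.8% lower and 22.8%, 21.3%, 23.3% and 20% higher. Zfp42, a marker of naive pluripotency, was among the lower ones in all 4 (-0.33, -0.33, -0.40 and -0.30). Nanog was also below the control in every knockdown library, at 586 to 592 TPM in EGFPKD and 416 to 538 TPM in the knockdowns. Sox2 went the other way, at 480 to 514 TPM in EGFPKD and 543 to 643 TPM in the knockdowns. The part of these marker changes in the results below was not tested.

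The cytosolic enzymes charge the tRNAs used to translate nuclear messages, and 8 of the 20 are held with 3 scaffold proteins in one multisynthetase complex. The mitochondrial enzymes are also encoded in the nucleus, are imported, and serve only the translation of the respiratory subunits encoded in mitochondrial DNA. Many cytosolic synthetase genes are known targets of ATF4, a transcription factor made during the integrated stress response. ATF4 raises amino acid uptake, synthesis and charging when amino acids are short.

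In EGFPKD the 2 classes did not share a range of levels. Cytosolic messages ran from 77.8 ± 8.37 TPM for Cars to 399 ± 2.61 TPM for Kars (mean ± SD, n = 3), and mitochondrial messages from 3.83 ± 0.15 TPM for Wars2 to 59.7 ± 1.18 TPM for Tars2. The lowest cytosolic library value, 68.4 TPM for Cars, was above the highest mitochondrial one, 61.0 TPM for Tars2. Kars, Gars and Rars led the cytosolic order at 399, 292 and 282 TPM. Kars stood above the others in every library, while Gars (277 to 318 TPM) and Rars (277 to 291 TPM) overlapped. Tars2, Yars2 and Iars2 led the mitochondrial order at 59.7, 58.4 and 57.2 TPM, with overlapping libraries, and Wars2, Nars2 and Pars2 were lowest at 3.83, 6.17 and 9.31 TPM.

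Cytosolic synthetase messages fell in every knockdown, while few mitochondrial ones did. With the edgeR quasi-likelihood test at an adjusted p under 0.05, 17 of 20 cytosolic members were lower in Ddx10KD (14.5% of all tested genes were), 16 in Ddx24KD (13.1%), 17 in Ddx27KD (16.1%) and 16 in Ddx54KD (11.2%), and none was higher. Of the 16 mitochondrial members, 1, 2, 1 and 2 were called lower in the same order, and 0, 0, 1 and 0 were called higher, where 16.5%, 15%, 17.3% and 13.1% of all genes were. The median cytosolic log2 change was -0.30 in Ddx10KD, -0.29 in Ddx24KD, -0.34 in Ddx27KD and -0.32 in Ddx54KD, against mitochondrial medians of 0.030, 0.0069, -0.0026 and 0.016. These are bulk samples, so fewer cells of a kind and less RNA per cell cannot be told apart. All 4 comparisons share the 3 EGFPKD libraries, so their counts are not independent of one another.

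Of the 20 cytosolic members 16 were called lower in all 4 knockdowns, where 7.31% of all tested genes were. Farsa, a subunit of the phenylalanine enzyme, and Qars, the glutamine enzyme, were called in 1 knockdown each, and Cars and Dars, the cysteine and aspartate enzymes, in none. No mitochondrial member was called lower in all 4, and no member of either class higher in all 4, where 9.32% of all tested genes were. These counts are from the fit without the replicate number. With the number as a block Farsa, Qars and the mitochondrial Yars2 were also called lower in all 4, and the share of all genes for this was not taken. Without any test, all 3 knockdown libraries lay below all 3 control libraries for 18 of 20 cytosolic members in Ddx10KD (22.4% of all tested genes), 16 in Ddx24KD (19.6%), 18 in Ddx27KD (23.3%) and 18 in Ddx54KD (19.5%). For 16 cytosolic members and 0 mitochondrial ones all 12 knockdown libraries lay below the control. The share of all tested genes that did so was not taken, so these 2 counts have no background. The mitochondrial members lay below the control without overlap in 2, 3, 3 and 4 of 16 cases, and above it in 1, 2, 1 and 2, where 23.8%, 21.1%, 23.4% and 20.7% of all genes did. Because abundant genes are called more often, the share of genes called lower was also taken over genes within each class's range of mean level. Over the 2022 genes between 101 and 500 CPM (counts scaled for library size but not for gene length), the range of the cytosolic members, 24.9%, 21.9%, 28.04% and 22.8% were called lower. Over the 6572 genes between 8.60 and 94.7 CPM, the mitochondrial range, the shares were 15.5%, 15.1%, 18.5% and 12.2%.

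**Figure D1:**
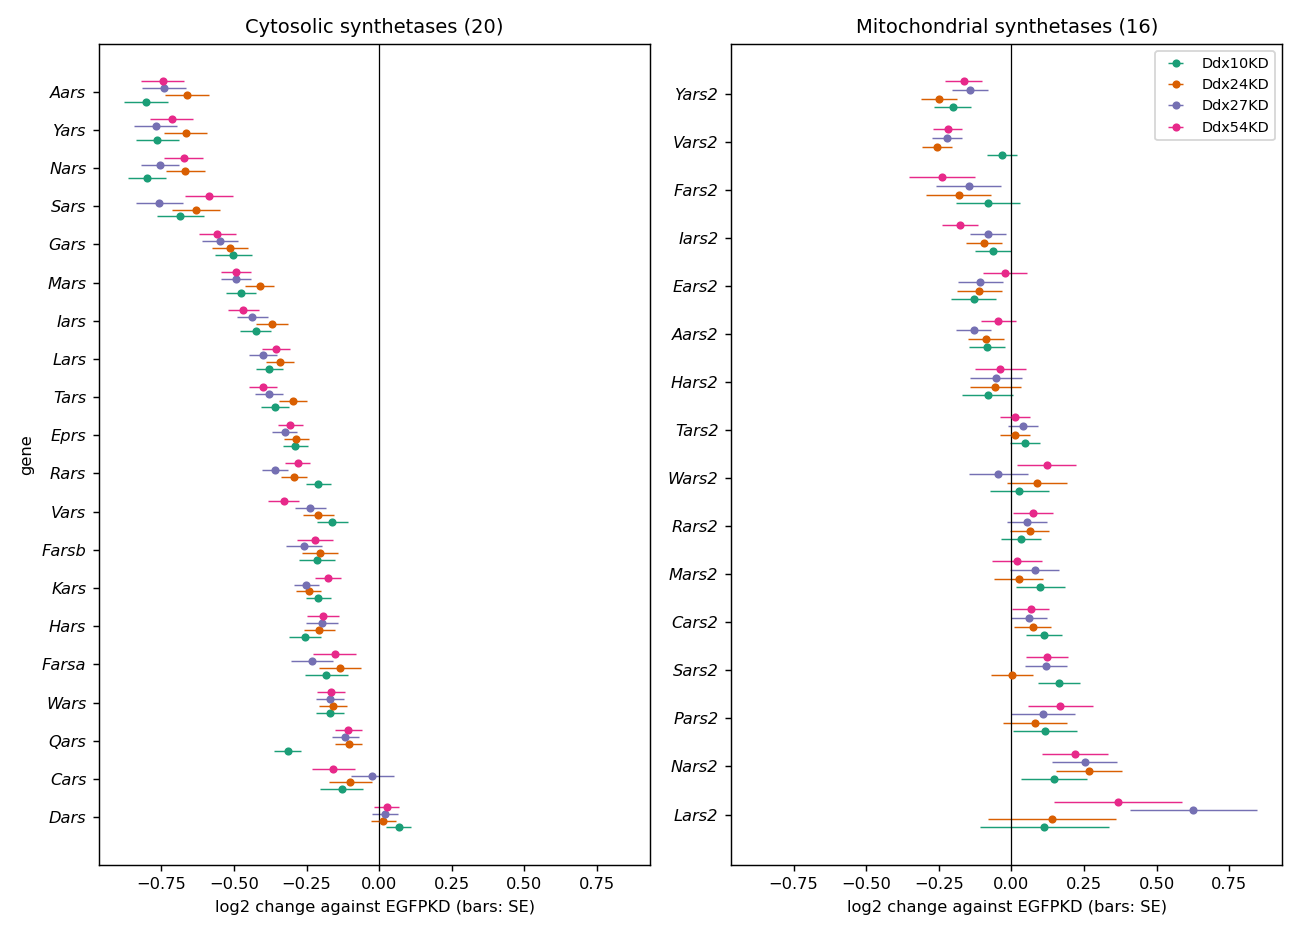
Fitted log2 change of each synthetase against EGFPKD (horizontal axis) in the 4 knockdowns (colours), with SE as bars, for 20 cytosolic (left) and 16 mitochondrial (right) genes ordered by their mean change. All cytosolic points but those of Dars lie below 0, and the mitochondrial points lie on both sides of it, with Lars2 carrying the widest bars.

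The same contrast was seen in each library. Relative to the EGFPKD mean, the median cytosolic member stood at -0.05, 0.07 and -0.02 (log2 CPM) in the 3 EGFPKD libraries and between -0.38 and -0.23 in the 12 knockdown libraries, with no overlap. The median mitochondrial member stood at -0.0053, -0.0085 and 0.028 in EGFPKD, and its knockdown values, from -0.09 to 0.05, surrounded these. Summed over the class, cytosolic messages made up 3786 ± 121 TPM in EGFPKD and 3085 ± 53.6, 3038 ± 75.4, 2975 ± 98.6 and 3014 ± 41.0 TPM in Ddx10KD, Ddx24KD, Ddx27KD and Ddx54KD (mean ± SD, n = 3). Mitochondrial messages summed to 446 ± 14.8 TPM in EGFPKD and 464 ± 20.4, 437 ± 17.1, 461 ± 5.89 and 451 ± 4.95 TPM in the knockdowns. The ratio of the sums was 8.49 ± 0.497 in the control and 6.45 to 6.96 in the knockdown means. Its lowest control library, at 8.17, was above its highest knockdown library, at 7.45. No test was run on these sums, since the members were chosen together.

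**Figure D2:**
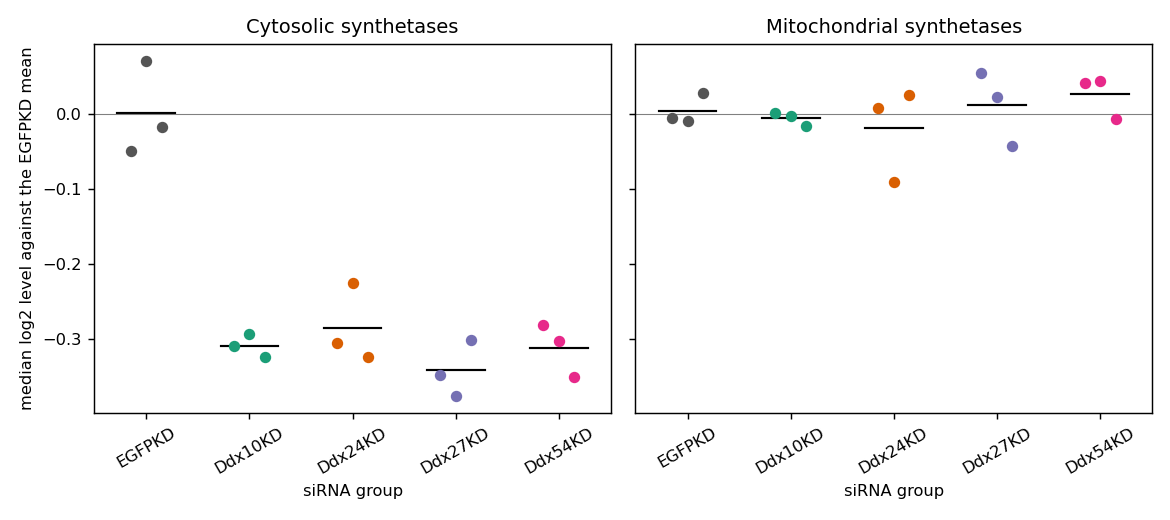
Median log2 level of the cytosolic (left) and mitochondrial (right) synthetases relative to the EGFPKD mean (vertical axis), 1 point per library and a line for the mean of 3. Cytosolic medians of the knockdowns lie between -0.38 and -0.23, below all 3 control libraries, while mitochondrial medians overlap the control.

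Replicate 2 of EGFPKD had the highest control level of 19 of the 20 cytosolic members, the exception being Rars, and of 3 of the 16 mitochondrial members. Without this library 15, 13, 14 and 14 cytosolic members were still called lower in Ddx10KD, Ddx24KD, Ddx27KD and Ddx54KD. The share of all genes called lower in that fit is not given here, so these counts have no background. Libraries of the same replicate number resembled each other, and within numbers the cytosolic medians were also lower. The difference from the EGFPKD library of the same number ran from -0.30 to -0.23 for number 1, from -0.45 to -0.30 for number 2, and from -0.33 to -0.28 for number 3. The mitochondrial differences within numbers ran from -0.08 to 0.06. With the replicate number as a block, 18, 18, 18 and 19 cytosolic members were called lower, where 21.3%, 19.9%, 22.6% and 18.8% of all genes were.

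Aars, the alanine enzyme, had the largest mean change of the class. It stood at 338, 413 and 370 CPM in EGFPKD, 217, 217 and 209 in Ddx10KD, 219, 266 and 225 in Ddx24KD, 220, 224 and 226 in Ddx27KD, and 216, 239 and 213 in Ddx54KD. All 12 knockdown libraries were below all 3 control libraries and the highest of them was replicate 2 of Ddx24KD. The log2 changes were -0.80, -0.66, -0.74 and -0.75 in the 4 knockdowns, each ± 0.08 (SE), and the edgeR adjusted p ranged from 1.76e-06 to 1.18e-05. Aars (chr8:111033144-111057664, plus strand, mm10 with GENCODE M21) shares exon sequence with Exosc6 on the same strand, so reads of the 2 genes could be split by the authors' counting.

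Nars, the asparagine enzyme, followed the same course. Its levels were 295, 346 and 318 CPM in EGFPKD, 188, 189 and 174 in Ddx10KD, 196, 217 and 192 in Ddx24KD, 187, 178 and 204 in Ddx27KD, and 203, 204 and 195 in Ddx54KD. Every knockdown library was below every control library. The changes were -0.80, -0.67, -0.75 and -0.67, each ± 0.07, with edgeR adjusted p from 4.75e-07 to 3.75e-06.

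Yars, the tyrosine enzyme, was the least abundant of the 5 genes with the lowest mean changes. It was at 166, 197 and 168 CPM in EGFPKD, 107, 103 and 102 in Ddx10KD, 111, 122 and 101 in Ddx24KD, 103, 99.2 and 109 in Ddx27KD, and 111, 111 and 101 in Ddx54KD. The groups did not overlap the control. Its changes of -0.76, -0.67, -0.77 and -0.71, each ± 0.07, had edgeR adjusted p from 1.37e-06 to 8.44e-06. Exons of Yars (chr4:129189760-129219607, plus strand) overlap C77080 on the other strand, and whether the counting used strand is not given in the sources used here.

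Sars, the serine enzyme, also charges the tRNA that is later converted to carry selenocysteine. Its levels were 283, 344 and 322 CPM in EGFPKD, 198, 199 and 193 in Ddx10KD, 187, 236 and 189 in Ddx24KD, 175, 190 and 196 in Ddx27KD, and 202, 215 and 215 in Ddx54KD. Again no knockdown library reached the control range. The changes were -0.68, -0.63, -0.76 and -0.59, each ± 0.08, with edgeR adjusted p from 4.52e-06 to 9.17e-05. Sars lies at chr3:108424865-108445209 on the minus strand.

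**Figure D3:**
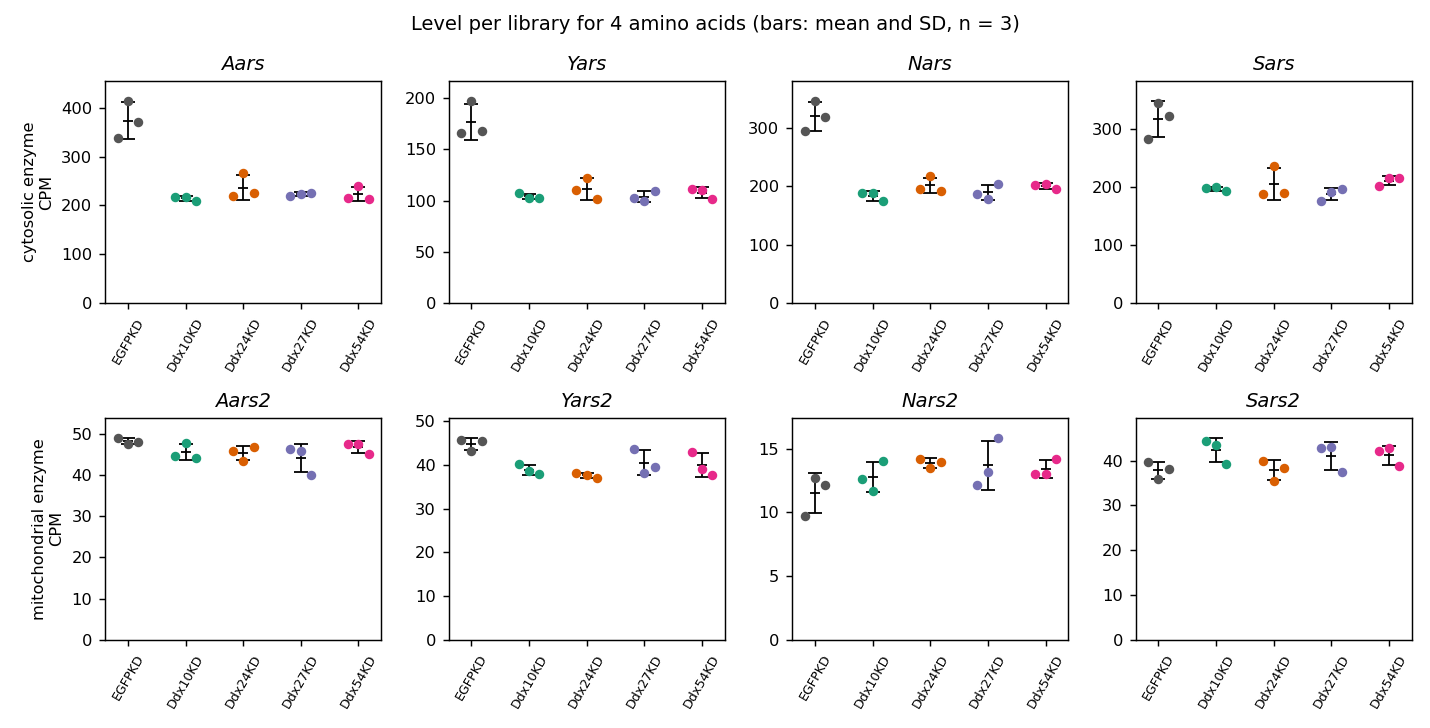
Levels in CPM (vertical axes, from 0) of the cytosolic (top) and mitochondrial (bottom) enzymes for alanine, tyrosine, asparagine and serine in each library, with mean and SD of 3 libraries per group. In the top row all 12 knockdown libraries of each gene lie below the control, while in the bottom row Aars2, Nars2 and Sars2 overlap it in at least 1 knockdown, as Yars2 does in Ddx27KD alone.

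Gars and Kars make both the cytosolic and the mitochondrial enzyme for glycine and for lysine. Gars was at 322, 379 and 327 CPM in EGFPKD, 243, 244 and 239 in Ddx10KD, 236, 260 and 224 in Ddx24KD, 226, 235 and 242 in Ddx27KD, and 233, 235 and 230 in Ddx54KD. Kars was at 397, 414 and 402 CPM in EGFPKD, 359, 359 and 332 in Ddx10KD, 340, 352 and 334 in Ddx24KD, 337, 340 and 344 in Ddx27KD, and 358, 369 and 348 in Ddx54KD. Both genes were lower in every knockdown library than in any control library, Gars by more than Kars. The log2 changes of Gars were -0.50, -0.51, -0.55 and -0.56, each ± 0.06, with edgeR adjusted p from 7.31e-06 to 2.31e-05. Those of Kars were -0.21, -0.24, -0.25 and -0.18, each ± 0.04, with edgeR adjusted p from 0.000363 to 0.00778. Message levels do not show how much of either protein goes to each compartment. Gars lies at chr6:55038007-55079500 (plus strand) and Kars at chr8:111993443-112011323 (minus strand).

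Promoter sequences were looked up because ATF4, bound to a C/EBP partner, is known to act at composite elements of the form TGATGNAA. RefSeq start-site windows (GRCm38.p6, 250 bases before to 50 after the start) matched 13 of the 20 cytosolic and 14 of the 16 mitochondrial genes. TGATGNAA, read on both strands, was present in the windows of 5 of the 13 cytosolic genes (Aars, Gars, Iars, Tars and Yars) and 0 of the 14 mitochondrial genes, where 3.97% of 32851 windows held it. The cyclic AMP response element TGACGTCA, also read on both strands and at no place overlapping the first motif in these genes, was in 0 of 13 and 0 of 14, and in 1.79% of all windows. A match is a run of letters and not a shown binding site. The stretch around 1 match in each of these genes is printed in the direction of the gene with the match in capitals.
Aars, from 10 to 17, chr8:111033842-111033867: cgggtcactTTTCATCAgagcgctct
Gars, from -30 to -23, chr6:55037962-55037987: gctgcgctaTTTCATCAtgcaccggg
Tars, from -15 to -8, chr15:11399657-11399682: ggagtcccgTTGCATCAgctggttag
Iars, from 8 to 15, chr13:49682128-49682153: ctgtcagtaTTGCATCAcctccagac
Yars, from 4 to 11, chr4:129189897-129189922: gagctcagcTGATGCAAcccgacggg

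Positions are counted from the start, with -1 just before it. The Yars match reads TGATGNAA on the strand of the gene, and the other printed matches on the opposite strand. To show a cytosolic gene beside a mitochondrial one, the 250 bases before the start of Gars, with its match in capitals, and of Aars2, with none, are printed next.
Gars, chr6:55037751-55038000, plus strand: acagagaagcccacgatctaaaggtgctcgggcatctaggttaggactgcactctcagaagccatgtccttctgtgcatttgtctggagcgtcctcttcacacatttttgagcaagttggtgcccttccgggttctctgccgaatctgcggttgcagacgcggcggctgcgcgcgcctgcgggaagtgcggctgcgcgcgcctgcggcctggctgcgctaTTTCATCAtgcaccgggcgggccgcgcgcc
Aars2, chr17:45506591-45506840, plus strand: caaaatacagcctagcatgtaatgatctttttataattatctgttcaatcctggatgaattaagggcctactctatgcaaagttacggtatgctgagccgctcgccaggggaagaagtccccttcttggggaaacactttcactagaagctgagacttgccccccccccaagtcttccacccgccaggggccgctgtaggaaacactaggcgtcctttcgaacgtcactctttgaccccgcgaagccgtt

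Of the 13 cytosolic genes listed as ATF4 and CHOP targets 12 were called lower in each knockdown, all but Cars, with medians of -0.42, -0.37, -0.44 and -0.47. Of the 7 other cytosolic genes 5, 4, 5 and 4 were called lower, with medians of -0.21, -0.20, -0.23 and -0.18. The shares of all tested genes called lower were 14.5%, 13.1%, 16.1% and 11.2%. Within the cytosolic range of level these shares were 24.9%, 21.9%, 28.04% and 22.8%. The difference between these lists was not tested, and the lists were drawn up with earlier results of these data known. Mars, Iars, Lars and Tars, the methionine, isoleucine, leucine and threonine enzymes, followed the genes above. Mars changed by -0.48, -0.41, -0.49 and -0.49, Iars by -0.42, -0.37, -0.44 and -0.47, Lars by -0.38, -0.34, -0.40 and -0.36, and Tars by -0.36, -0.30, -0.38 and -0.40, each ± 0.05 (SE), all called in edgeR. Exons of Mars overlap Ddit3, the CHOP gene, on the other strand. Ddit3 was between 2.24 and 4.05 CPM in all libraries, against 148 to 233 CPM for Mars.

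Calls towards lower levels were made both within the multisynthetase complex and outside it. Of its 8 enzymes, which include Dars, 7, 6, 6 and 6 were called lower, with medians of -0.30, -0.29, -0.34 and -0.29, and of the 12 enzymes outside it 10, 10, 11 and 10 were, with medians of -0.31, -0.25, -0.32 and -0.36. Eprs, which charges glutamate and proline tRNAs with 1 protein, changed by -0.29, -0.29, -0.32 and -0.31, each ± 0.04, and Rars, the arginine enzyme, by -0.21, -0.29, -0.36 and -0.28, each ± 0.04. By the structural class of the catalytic fold, 8, 7, 7 and 7 of 9 class I enzymes and 8, 8, 9 and 8 of 10 class II enzymes were called lower, with Eprs, which holds both folds, left out. The shares of all genes called lower are those given for the ATF4 and CHOP target list. These splits were not tested against each other.

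Vars, Hars, Farsb and Wars, the valine, histidine, phenylalanine and tryptophan enzymes, had small changes that were called in all 4 knockdowns. Vars changed by -0.16, -0.21, -0.24 and -0.33, Hars by -0.25, -0.21, -0.20 and -0.19, and Wars by -0.17, -0.16, -0.17 and -0.16, each ± 0.05. Farsb, which pairs with Farsa in 1 enzyme, changed by -0.21, -0.20, -0.26 and -0.22, each ± 0.06. Farsa changed by -0.18, -0.14, -0.23 and -0.15, each ± 0.07, and was called in Ddx27KD alone (edgeR adjusted p = 0.0216). With the replicate number as a block Farsa was called in all 4, as were Vars, Hars, Farsb and Wars. Each of these 5 genes lost at least 1 call when a single library was left out, with edgeR adjusted p between 0.0501 and 0.108 there, and without replicate 2 of EGFPKD the Wars call was lost in all 4 knockdowns (adjusted p of 0.0546 to 0.0792). The other libraries whose removal ended such a call were replicates 2 and 3 of each knockdown and replicates 1 and 3 of EGFPKD. The Wars call in Ddx24KD was also lost when only the compared groups were fitted (0.0576). Exons of Hars overlap Hars2, its mitochondrial counterpart, and those of Farsb overlap Sgpp2, both on the other strand.

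Dars, Cars and Qars had the highest mean log2 changes among the cytosolic members. Dars was at 188, 191 and 184 CPM in EGFPKD, 194, 206 and 190 in Ddx10KD, 188, 195 and 187 in Ddx24KD, 183, 195 and 193 in Ddx27KD, and 191, 192 and 190 in Ddx54KD. Every knockdown group overlapped the control. Its log2 changes were 0.07, 0.01, 0.02 and 0.03, each ± 0.04, and edgeR adjusted p were 0.273 to 0.839.

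Cars was at 102, 129 and 120 CPM in EGFPKD, 103, 109 and 109 in Ddx10KD, 108, 108 and 112 in Ddx24KD, 113, 118 and 114 in Ddx27KD, and 94.9, 111 and 108 in Ddx54KD. All groups overlapped the control, whose own libraries were the most spread. The log2 changes were -0.13, -0.10, -0.02 and -0.16, each ± 0.07, with edgeR adjusted p of 0.201, 0.343, 0.831 and 0.130. Without replicate 1 of EGFPKD, the lowest control library, Cars was called lower in Ddx10KD (-0.22, adjusted p = 0.0210), Ddx24KD (-0.19, 0.0456) and Ddx54KD (-0.25, 0.0148), and with the replicate block in Ddx54KD (adjusted p = 0.0201).

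Qars was at 201, 213 and 209 CPM in EGFPKD, 163, 171 and 166 in Ddx10KD, 183, 205 and 192 in Ddx24KD, 189, 194 and 192 in Ddx27KD, and 194, 196 and 189 in Ddx54KD. Ddx10KD stood apart below all other groups, and Ddx24KD overlapped the control. The log2 change was -0.32 in Ddx10KD, with an edgeR adjusted p of 9.44e-05, and -0.10, -0.12 and -0.11 in the other knockdowns, with 0.102, 0.0614 and 0.104, each ± 0.05. With the replicate block Qars was called lower in all 4, with adjusted p of 0.0184 in Ddx24KD, 0.00899 in Ddx27KD and 0.0193 in Ddx54KD. Qars was also called in Ddx27KD by DESeq2 (adjusted p = 0.0391) and without replicate 1 or 2 of Ddx24KD (0.0485 and 0.0301), and in Ddx24KD without its replicate 2 (0.0192).

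**Figure D4:**
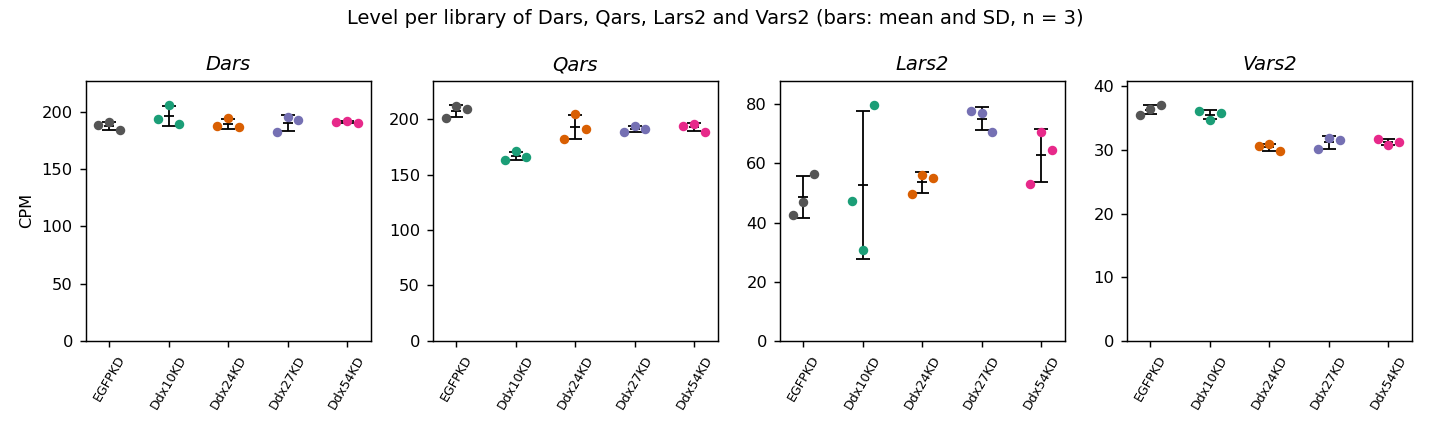
Levels in CPM (vertical axes, from 0) of Dars, Qars, Lars2 and Vars2 in each library, with mean and SD of 3 libraries per group. Dars overlaps the control in every knockdown, Qars is lowest in Ddx10KD at 163 to 171 CPM, Lars2 spreads from 30.8 to 79.9 CPM within Ddx10KD, and Vars2 in Ddx10KD stays near the control.

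Among the mitochondrial members Yars2, Vars2 and Iars2 had calls towards lower levels. Yars2, the tyrosine enzyme, was at 45.6, 43.1 and 45.5 CPM in EGFPKD, 40.1, 38.5 and 37.9 in Ddx10KD, 38.2, 37.7 and 37.0 in Ddx24KD, 43.7, 38.2 and 39.6 in Ddx27KD, and 43.0, 39.0 and 37.8 in Ddx54KD. Only Ddx27KD overlapped the control. Its changes were -0.20, -0.25, -0.14 and -0.16, each ± 0.06, with edgeR adjusted p of 0.0220, 0.00760, 0.0926 and 0.0665, and the first was lost without replicate 2 or 3 of Ddx10KD or replicate 1 or 3 of EGFPKD (0.0607 to 0.0801). Yars2 was called in Ddx27KD and Ddx54KD without replicate 1 of each (0.0328 and 0.0235). With the replicate block Yars2 was called lower in all 4, with adjusted p of 0.0200 in Ddx27KD and 0.0106 in Ddx54KD.

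Vars2, the valine enzyme, was at 35.6, 36.5 and 37.1 CPM in EGFPKD, 36.1, 34.7 and 35.9 in Ddx10KD, 30.6, 30.9 and 29.8 in Ddx24KD, 30.1, 31.9 and 31.5 in Ddx27KD, and 31.7, 30.8 and 31.2 in Ddx54KD. Ddx10KD overlapped the control and the other 3 knockdowns did not. The changes were -0.03, -0.26, -0.22 and -0.22, each ± 0.05, with edgeR adjusted p of 0.675, 0.00153, 0.00329 and 0.00524. Iars2, the isoleucine enzyme, was called lower in Ddx54KD alone, at -0.18 ± 0.06 with an edgeR adjusted p of 0.0490, and that call was lost in 11 other fits at the same threshold (0.0538 to 0.149). These were the fit with no filter and those without any 1 library of Ddx10KD, Ddx54KD or EGFPKD or replicate 3 of Ddx24KD. The edgeR fit with the replicate block kept the Iars2 call in Ddx54KD (adjusted p = 0.00881).

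Fars2, the phenylalanine enzyme, was at 14.7, 15.3 and 15.5 CPM in EGFPKD, 13.4, 16.1 and 13.6 in Ddx10KD, 13.8, 11.04 and 15.4 in Ddx24KD, 12.7, 14.4 and 14 in Ddx27KD, and 11.6, 13.5 and 13.6 in Ddx54KD. Ddx27KD and Ddx54KD lay below the control and the other groups overlapped it. The changes of -0.08, -0.18, -0.15 and -0.24, each ± 0.11, did not pass the edgeR test (adjusted p of 0.136 to 0.629).

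Lars2, the leucine enzyme, had the highest mean change of all members and the least even libraries. It was at 42.4, 47.0 and 56.6 CPM in EGFPKD, 47.2, 30.8 and 79.9 in Ddx10KD, 49.6, 56.1 and 55.1 in Ddx24KD, 77.7, 77.0 and 70.7 in Ddx27KD, and 53.0, 70.7 and 64.6 in Ddx54KD. Only Ddx27KD was wholly above the control, and Ddx10KD alone held values both below and above it. The changes were 0.11, 0.14, 0.63 and 0.37, each ± 0.22, and the edgeR adjusted p of 0.0376 in Ddx27KD was lost in DESeq2 (0.0655) and without any 1 library of Ddx27KD or replicate 1 or 2 of EGFPKD (0.0554 to 0.129). In Ddx54KD a fit of the compared groups alone called Lars2 higher (0.37, adjusted p = 0.0324).

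Nars2 and Pars2, the asparagine and proline enzymes, had the highest mean log2 changes after Lars2, at low levels. Nars2 was at 9.72, 12.7 and 12.1 CPM in EGFPKD, 12.6, 11.7 and 14.01 in Ddx10KD, 14.2, 13.5 and 13.96 in Ddx24KD, 12.1, 13.2 and 15.8 in Ddx27KD, and 13, 13.01 and 14.2 in Ddx54KD. Pars2 was at 9.80, 10.1 and 13.2 CPM in EGFPKD, 12.7, 11.3 and 11.9 in Ddx10KD, 12.05, 11.2 and 11.8 in Ddx24KD, 13.4, 11.2 and 11.2 in Ddx27KD, and 12.8, 11.9 and 12.6 in Ddx54KD. Ddx24KD and Ddx54KD lay above the control for Nars2, and all groups overlapped it for Pars2. Nars2 changed by 0.15, 0.27, 0.25 and 0.22 and Pars2 by 0.12, 0.08, 0.11 and 0.17, each ± 0.11, with no call in edgeR. Without replicate 3 of EGFPKD, the highest control library of Pars2, that gene was called higher in Ddx54KD (0.32, adjusted p = 0.0423), and without replicate 1 of Ddx27KD Nars2 was called higher there (0.33, adjusted p = 0.0495).

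With the replicate number as a block, 1, 2, 2 and 3 mitochondrial members were called lower, and 1, 1, 2 and 0 were called higher, where 22.8%, 21.3%, 23.3% and 20% of all genes were. The higher ones were Sars2 in Ddx10KD (0.16, adjusted p = 0.0281), Nars2 in Ddx24KD (0.27, adjusted p = 0.0215), and Nars2 and Lars2 in Ddx27KD (0.25 with adjusted p = 0.0299, and 0.64 with adjusted p = 0.00650). The other 9 mitochondrial members (Aars2, Cars2, Ears2, Hars2, Mars2, Pars2, Rars2, Tars2 and Wars2) had changes between -0.13 and 0.17 and no call in either edgeR fit. The median SE was 0.075 for mitochondrial and 0.054 for cytosolic members, so a change of a given size was harder to detect in the mitochondrial class.

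For 17 pairs of a cytosolic and a mitochondrial gene that charge the same amino acid, the cytosolic change was the lower of the pair in 17, 15, 17 and 15 cases. The pairs are not all separate, since Fars2 stands against both Farsa and Farsb, and Eprs against both Ears2 and Pars2. The median of the cytosolic change minus the mitochondrial change was -0.36, -0.31, -0.41 and -0.36 (log2). Asparagine, serine, leucine and alanine had the widest gaps on average over the 4 knockdowns: -0.95, -0.94, -1.01 and -0.89 for Nars and Nars2, -0.85, -0.63, -0.88 and -0.71 for Sars and Sars2, -0.49, -0.48, -1.03 and -0.72 for Lars and Lars2, whose libraries were uneven as given above, and -0.72, -0.57, -0.61 and -0.70 for Aars and Aars2. The TPM of Nars was 39.9 ± 3.09 times that of Nars2 in EGFPKD and 19.9 to 21.4 times in the knockdown means, and for Aars and Aars2 the ratio was 6.99 ± 0.811 against 4.25 to 4.71. Valine and phenylalanine showed gaps near 0: Vars and Vars2 differed by -0.13, 0.05, -0.02 and -0.11, and Farsa and Fars2 by -0.10, 0.05, -0.08 and 0.08. Tyrosine was the one amino acid with a call in both compartments in Ddx10KD. There Yars and Yars2 changed by -0.76 and -0.20.

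**Figure D5:**
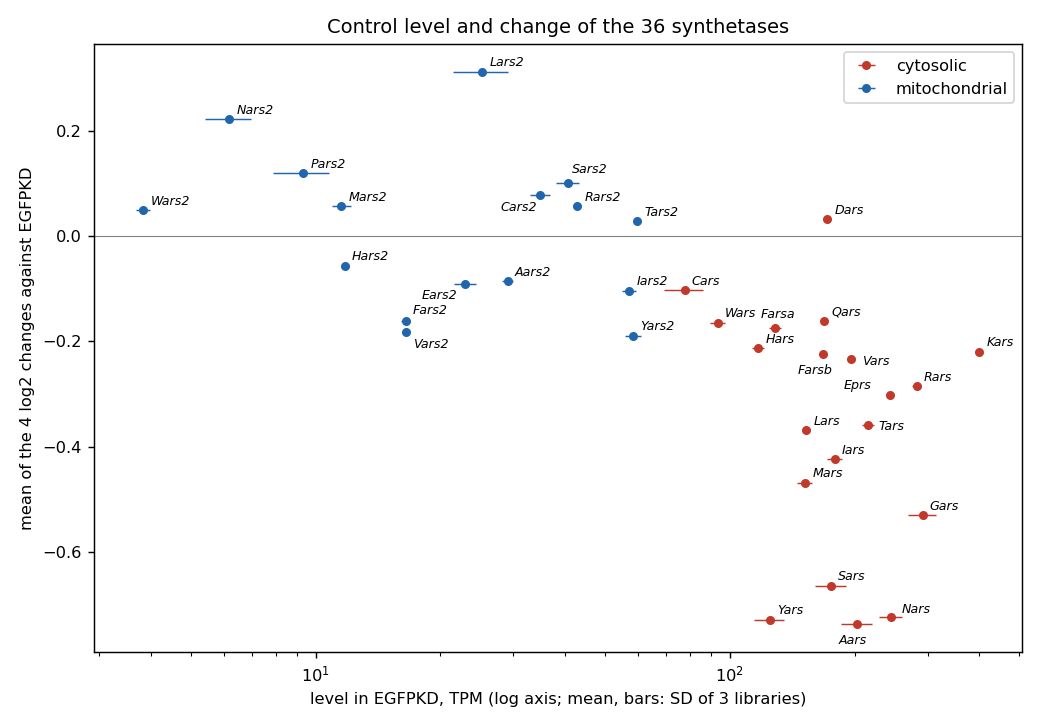
Mean of the 4 log2 changes against EGFPKD (vertical axis) and level in EGFPKD in TPM (horizontal log axis, mean with SD of 3 libraries) for the 36 genes. Cytosolic genes (red) lie at 77.8 TPM or more and all but Dars below 0, while mitochondrial genes (blue) lie at 59.7 TPM or less on both sides of 0.

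Differences among the knockdowns were small. The edgeR test over the 4 knockdown groups called 0 of 20 cytosolic and 0 of 16 mitochondrial members, where 0.495% of all genes were called, and 3 and 1 had an unadjusted p under 0.05. The lowest adjusted p were 0.0744 for Qars and 0.113 for Vars2. DESeq2 called Qars (adjusted p = 0.000697) and Vars2 (0.0372), and edgeR with the replicate block called Qars (0.00123), Vars (0.0375) and Vars2 (0.0143). Over the 6 pairs of knockdowns edgeR called 1 member in 1 pair. Qars was higher in Ddx54KD than in Ddx10KD by 0.21 ± 0.05 (adjusted p = 0.0330, 1.43% of all genes called), a call lost without any 1 of the 6 libraries of these groups (0.0654 to 0.136). In the other pairs no member was called, and the share of all genes called was 0.412% for Ddx24KD and 0.223% for Ddx27KD against Ddx10KD, 0.0209% for Ddx27KD and 0.0558% for Ddx54KD against Ddx24KD, and 0.014% for Ddx54KD against Ddx27KD. With the replicate block the pairs gave 8 calls, of which 3 were Qars and 3 Vars2 in the other knockdowns against Ddx10KD, with Qars higher and Vars2 lower than in Ddx10KD, and the others were Rars in Ddx27KD and Vars in Ddx54KD, both lower than in Ddx10KD.

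Genes that act beside the synthetases did not all follow them. Of the 3 scaffold proteins of the multisynthetase complex, Aimp1 was called lower in all 4 knockdowns (-0.24, -0.26, -0.22 and -0.20, each ± 0.05), and Aimp2, at -0.13, -0.15, -0.10 and -0.12, in none. The Aimp1 call in Ddx54KD was lost without replicate 1 or 3 of Ddx54KD or replicate 3 of EGFPKD (adjusted p of 0.0598 to 0.0627). Aimp2 was called lower with the replicate block in Ddx10KD, Ddx24KD and Ddx54KD (adjusted p = 0.0238, 0.0112 and 0.0413), and in Ddx24KD without replicate 1 of that group or replicate 1 or 3 of Ddx27KD (0.0444 to 0.0455). Mtfmt, which formylates the mitochondrial initiator tRNA, was at -0.14 in Ddx10KD and was called lower in the other knockdowns at -0.26, -0.23 and -0.27, each ± 0.06, the call in Ddx27KD being lost without replicate 3 of EGFPKD (adjusted p = 0.0562).

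Of 7 cytosolic factors of tRNA delivery and initiation, exchange factor subunits among them, 5, 3, 3 and 2 were called lower and 0, 1, 1 and 1 higher. Of all tested genes 14.5%, 13.1%, 16.1% and 11.2% were called lower and 16.5%, 15%, 17.3% and 13.1% higher. The replicate block gave 6, 3, 4 and 4 lower, where 21.3%, 19.9%, 22.6% and 18.8% of all genes were. It gave 0, 2, 2 and 1 higher, where 22.8%, 21.3%, 23.3% and 20% were. Eef1a1, which carries charged tRNA to the ribosome, was at 0.06 in Ddx10KD and was called higher in the other knockdowns at 0.27, 0.27 and 0.24, each ± 0.04. Eef1d, part of its exchange factor, was called lower in all 4 at -0.19, -0.26, -0.33 and -0.29, each ± 0.06, with the call in Ddx10KD lost without replicate 2 or 3 of Ddx10KD or replicate 1 or 2 of EGFPKD (adjusted p of 0.0593 to 0.107). Of 6 mitochondrial translation factors 2, 3, 2 and 2 were called lower, or 4, 4, 3 and 3 with the replicate block, and none was higher. The shares of all genes are those given for the cytosolic factors. Tufm, the mitochondrial carrier of charged tRNA, changed by -0.27, -0.27, -0.30 and -0.24, each ± 0.06, and Gfm2, a factor of ribosome recycling, by -0.24, -0.21, -0.18 and -0.20, each ± 0.04, all called. Without replicate 3 of Ddx54KD the Tufm call there was lost (adjusted p = 0.0515).

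The Atf4 message was at 215, 239 and 221 CPM in EGFPKD, 158, 166 and 141 in Ddx10KD, 185, 203 and 185 in Ddx24KD, 197, 209 and 189 in Ddx27KD, and 175, 200 and 169 in Ddx54KD. All 12 knockdown libraries were below the control, those of Ddx10KD by most. Its changes were -0.54, -0.24, -0.18 and -0.31, each ± 0.07, with edgeR adjusted p of 4.89e-05, 0.0224, 0.0617 and 0.00559. With the replicate block the change in Ddx27KD was called too (adjusted p = 0.000617), as it was when the compared groups were fitted alone (0.0269) and without replicate 3 of Ddx10KD, replicate 2 of Ddx24KD, Ddx27KD or Ddx54KD (0.0389 to 0.0493). The call in Ddx24KD was lost without replicate 1 or 3 of Ddx24KD or replicate 2 of EGFPKD (0.0741 to 0.0938). Of 20 genes of the integrated stress response 11, 11, 12 and 11 were called lower and 1, 3, 2 and 1 higher. Of all tested genes 14.5%, 13.1%, 16.1% and 11.2% were called lower and 16.5%, 15%, 17.3% and 13.1% higher. The replicate block gave 12, 12, 13 and 13 lower, where 21.3%, 19.9%, 22.6% and 18.8% of all genes were. It gave 3, 3, 3 and 3 higher, where 22.8%, 21.3%, 23.3% and 20% were. Sesn2 of this list rose, from 85.8 to 95.9 TPM in EGFPKD to 111 to 146 TPM in the knockdowns. Mthfd2, a mitochondrial folate enzyme, changed by -0.86, -0.77, -0.98 and -0.88, each ± 0.06, and Psat1, of serine synthesis, by -0.94, -0.79, -0.89 and -0.77, each ± 0.09.

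Class counts were also taken from the authors' deposited tables. The log2 ratios of members in the authors' deposited table for Ddx24KD differed from the edgeR changes by up to 0.0394 for a cytosolic (Rars) and 0.0838 for a mitochondrial gene (Mars2), more than in the other 3, and the cause was not tested. At a posterior probability of differential expression of at least 0.95, 18, 16, 18 and 17 cytosolic members were lower in the authors' deposited tables, where 8.62%, 5.98%, 9.49% and 6.66% of their genes were. Of the mitochondrial members 0, 0, 0 and 1 were lower in the authors' deposited tables, the last being Iars2, and Lars2 was the one member higher, in Ddx27KD. Vars2 in Ddx24KD, called by edgeR, had a posterior probability of 4.2e-06 in the authors' deposited table at a log2 ratio of -0.26, and Farsa in Ddx10KD, not called by edgeR, had 0.981 at -0.19.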

How the data were processed

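RNA of E14 cells was sequenced from libraries made by oligo-dT capture, 3 per group, and per the submitters' processing notes RSEM was run against mm10. The sources used here name no aligner, annotation or RSEM version and do not say whether counting used strand. The authors deposited an expected count, a TPM and an FPKM value for every gene and library, per the file headers, and FPKM was not used. The authors also deposited an EBSeq table for each knockdown, with posterior probabilities, treated here as a score, and a ratio of knockdown to control for each gene, per the file headers.

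Expected counts were rounded to whole numbers, scaled by TMM and fitted in edgeR 4.0.16 (R 4.3.3, limma 3.58.1) by the quasi-likelihood test, in 1 fit of all 15 libraries with the group as the only term. The filter filterByExpr kept 14335 of 23845 genes, which held 99.97% of the counts. P-values were adjusted by Benjamini-Hochberg over all tested genes and called under 0.05. Errors of log2 changes are SE and errors of levels are SD over 3 libraries. CPM values are scaled by TMM, and TPM is used between genes. Alternatives were DESeq2 1.42.0, other scaling factors, no filter, a minimum of 10 CPM, the compared groups alone, an adjusted p under 0.01, the replicate number as a block, and each library left out. The script was tested on simulated counts. Tables and plots used Python 3.11.15, pandas 2.3.3 and matplotlib 3.10.9.

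Replicate numbers come from the labels, and the deviations of same-numbered libraries from their group means were correlated at 0.164 to 0.447 over 30 pairs, against -0.313 to 0.0569 for other pairs. They were therefore taken to pair the libraries, and fits with the number as a block are given for members where they change a call. For other genes such fits are given in part. The members and gene lists were chosen with earlier results of these data known. The shares of called genes within each class's range of level were added after the data had been seen. Values per library are given for Gars and Kars, for the 5 cytosolic members with the lowest and the 3 with the highest mean log2 change, for 3 mitochondrial members at each end, for Atf4, and up to 2 genes per other list by smallest p. Genes named outside this rule, such as Iars2 and the genes that overlap members, were chosen after their values were seen. Some items of the lists and promoters are not reported here.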

Additional observations from a re-analysis of the deposited data

Results flagged for a closer look

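Qars, the glutamine enzyme, differed between 2 knockdowns in a direct test of the difference. It was higher in Ddx54KD than in Ddx10KD by 0.21 ± 0.05 on the log2 scale, with an edgeR adjusted p of 0.0330, and the 3 libraries of each group did not overlap (194, 196 and 189 CPM against 163, 171 and 166 CPM). The difference was between 0.19 and 0.23 in every fit, and the adjusted p ranged from 0.000792 with the replicate block to 0.136 without replicate 3 of Ddx10KD.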

How the results depend on the processing

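Of 73 called changes of members against EGFPKD, 15 were lost under at least 1 alternative and 0 changed sign. Counts of cytosolic members stayed within 1.5 times those reported, and leaving out 1 library gave 14 to 18, 13 to 16, 14 to 18 and 13 to 17 called lower in Ddx10KD, Ddx24KD, Ddx27KD and Ddx54KD. Shares of all genes called in the fits with 1 library left out are not given here. At an adjusted p under 0.01 mitochondrial calls were 0 lower in Ddx10KD, 1 lower in Ddx54KD and 0 higher in Ddx27KD, and the pairs of knockdowns gave 0 calls. With the replicate block mitochondrial members called higher were 1 in Ddx10KD, 1 in Ddx24KD and 2 in Ddx27KD, and 2 were called lower in Ddx27KD. The block also gave 2 cytosolic and 1 mitochondrial calls among the knockdowns and 8 over their pairs, and for members it changed no other call than those given. DESeq2 gave 0 mitochondrial members higher in Ddx27KD, 1 cytosolic and 1 mitochondrial among the knockdowns, and 4 over the pairs. With no filter 1 mitochondrial member was lower in Ddx54KD, and 1 was higher there when only that group and EGFPKD were fitted. The Ddx10KD class medians per library became -0.27 and 0.032 (cytosolic and mitochondrial) with library totals alone and -0.36 and 0.0052 as means of log2 values, and the Ddx54KD cytosolic value became -0.35 as such a mean.

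Leaving out 1 library gave 0 to 1 mitochondrial members lower in Ddx10KD, 1 to 2 in Ddx27KD and 1 to 2 in Ddx54KD, with 0 to 1 higher in Ddx27KD and 0 to 1 in Ddx54KD. It gave 0 to 1 cytosolic calls among the knockdowns and 0 to 2 over the pairs. The Ddx10KD medians ranged from -0.33 to -0.29 for the cytosolic class and from -0.017 to 0.0063 for the mitochondrial one. The causes of these differences were not tested. Limits set by depth were not compared between members. The widest SE was that of Lars2 (0.22), which is not the scarcest member.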

Other observations

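Of 14 genes that mature or export tRNA 4, 4, 7 and 3 were called lower in Ddx10KD, Ddx24KD, Ddx27KD and Ddx54KD and none higher, where 14.5%, 13.1%, 16.1% and 11.2% of all tested genes were called lower. Under the replicate block 7, 9, 9 and 6 were lower, where 21.3%, 19.9%, 22.6% and 18.8% of all genes were. The block gave 1, 0, 0 and 0 higher, where 22.8%, 21.3%, 23.3% and 20% were. Xpot, the exporter of tRNA from the nucleus, changed by -0.33, -0.28, -0.33 and -0.32, each ± 0.04 (SE, edgeR), and Clp1, a kinase of RNA ends that acts with the tRNA splicing endonuclease, by -0.31, -0.34, -0.37 and -0.30, each ± 0.08, all called.

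A further list of 9 genes held Tarsl2 beside genes for selenocysteine and for clearing wrongly charged tRNA. Of these 9 genes 0, 1, 1 and 1 were called lower and 0, 0, 1 and 0 higher. The shares of all tested genes were 14.5%, 13.1%, 16.1% and 11.2% lower and 16.5%, 15%, 17.3% and 13.1% higher. Blocking on the replicate number gave 0, 3, 3 and 2 lower, where 21.3%, 19.9%, 22.6% and 18.8% of all genes were. It gave 0, 0, 1 and 1 higher, where 22.8%, 21.3%, 23.3% and 20% were. Dtd1, which removes D-amino acids from tRNA, was at -0.18 in Ddx10KD and was called lower in the other knockdowns at -0.30, -0.42 and -0.30, each ± 0.10. Its calls in Ddx24KD and Ddx54KD were lost without replicate 2 or 3 of EGFPKD, and without replicate 1 or 3 of Ddx24KD or replicate 1 or 2 of Ddx54KD (adjusted p of 0.0807 to 0.121). Tarsl2, a second threonine enzyme of the cytosol, was at 0.13, 0.16 and 0.24 in Ddx10KD, Ddx24KD and Ddx54KD and was called higher in Ddx27KD at 0.33, each ± 0.10. That call was lost without replicate 3 of Ddx27KD or replicate 2 of EGFPKD (0.0574 and 0.0533), and in Ddx54KD Tarsl2 was called with the replicate block (0.0271) and without replicate 3 of Ddx10KD (0.0390).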
